A study of Mus musculus with 12 samples.

Results

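The 9 genes described here, *Pparg*, *Cebpa*, *Cebpb*, *Cebpd*, *Fabp4*, *Adipoq*, *Lpl*, *Zfp423* and *Lepr*, mark the adipocyte lineage and were followed by symbol through 12 osteoblast RNA-Seq libraries. All 9 were listed among the 23284 genes of the sorted osteoblast files and the 24346 genes of the MC3T3-E1 files. The series had 4 groups of 3 libraries. The vehicle and PTH groups were 7AAD- Lin- CD45- ECFP+ osteoblasts sorted from female Col2.3-ECFP mice, in which a type I collagen promoter drives the fluorescent protein. Injections began at 12 weeks of age. They were given subcutaneously 5 days a week for 3 weeks, as PBS or as PTH(1-34) at 40 µg/kg per day, and bone was collected 24 h after the last injection. Both groups therefore carried the reporter transgene, and the libraries came from different mice; whether mice were pooled is not stated. The mock and Slpi groups were MC3T3-E1 cells, a clonal calvarial osteoblast line, infected with the retroviral vector pMX-IRES-Puro, empty or with *Slpi* cDNA, and selected with puromycin. Nothing says that the 3 MC3T3-E1 libraries of a group came from separate infections, so their p-values measure the spread between these libraries, which may be technical.

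Osteoblasts and marrow adipocytes arise from shared stromal precursors, and the choice of fate is set by competing transcription factors. In the textbook order of adipogenesis, C/EBPβ and C/EBPδ act early and induce PPARγ and C/EBPα, which then maintain each other and turn on genes of the mature fat cell, such as *Fabp4*, *Lpl* and *Adipoq*. *Zfp423* encodes a zinc finger factor that commits preadipocytes, and *Lepr*, the leptin receptor, marks marrow stromal cells that can form both bone and fat. Adiponectin, the product of *Adipoq*, is also transcribed by a part of these stromal cells. Intermittent PTH is an anabolic bone treatment, and SLPI is a secreted inhibitor of serine proteases.

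The upstream sequences of 3 genes are shown because, in the Slpi experiment, *Cebpa* and *Cebpb* were called lower and *Lepr* higher. They are RefSeq sequences of build GRCm38.p6 (mm10), plus strand, 5′ to 3′, and end at the base before the annotated start. Windows were matched by symbol for 6 of the 9 members, the others being *Cebpd*, *Fabp4* and *Lpl*. Only plus-strand windows are printed, which leaves out *Zfp423*, also called lower with Slpi. Capitals mark any match on either strand to 5 short motifs. They are the CCAAT box, the TATA box (TATAAA), the GC box (GGGCGG), the core of the cyclic AMP response element (TGACG) and a C/EBP site (TTGCNNAA).
Cebpa promoter, chr7:35119043-35119292: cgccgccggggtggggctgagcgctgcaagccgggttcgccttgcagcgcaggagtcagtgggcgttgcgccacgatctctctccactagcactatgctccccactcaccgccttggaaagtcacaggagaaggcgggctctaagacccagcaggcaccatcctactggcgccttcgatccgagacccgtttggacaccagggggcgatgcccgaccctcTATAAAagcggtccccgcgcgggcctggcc
Cebpb promoter, chr2:167688665-167688914: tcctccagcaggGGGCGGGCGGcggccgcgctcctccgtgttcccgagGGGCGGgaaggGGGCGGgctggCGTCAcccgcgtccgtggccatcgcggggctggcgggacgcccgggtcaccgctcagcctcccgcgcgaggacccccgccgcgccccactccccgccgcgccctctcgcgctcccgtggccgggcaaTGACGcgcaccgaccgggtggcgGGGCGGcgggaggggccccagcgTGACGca
Lepr promoter, chr4:101717157-101717403: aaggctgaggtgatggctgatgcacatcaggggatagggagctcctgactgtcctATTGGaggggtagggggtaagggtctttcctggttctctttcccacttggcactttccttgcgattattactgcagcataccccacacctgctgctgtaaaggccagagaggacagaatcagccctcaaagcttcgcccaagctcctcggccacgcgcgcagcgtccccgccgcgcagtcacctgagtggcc
The *Cebpa* window held 1 TATA box, a motif present in 12.4% of the 32851 mouse promoters searched. The *Cebpb* window held 5 GC boxes, of which the leading pair overlap, and 3 matches to TGACG. GC boxes were present in 32.7% of promoters and TGACG in 17.8%. The *Lepr* window held 1 CCAAT box, read on the minus strand, a motif found in 33.8% of promoters. No C/EBP site (9.56% of promoters) was found in these 3 windows. Among the windows not shown, a *Zfp423* window held 1 such site and a *Pparg* window 2. GC content was 66.4% for *Cebpa*, 81.6% for *Cebpb* and 58.7% for *Lepr*. These matches describe letters only.

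Expression is given as the deposited FPKM, a fragment count scaled by the length of the transcript and the size of the library. Each experiment was tested on its own with limma on log2(FPKM + 1). A gene was tested where any of the 6 libraries reached an FPKM of 1, and p was adjusted over all such genes by Benjamini-Hochberg. Log2 fold changes are therefore on the log2(FPKM + 1) scale, which understates the change of low genes. The steps between low FPKM values gave an estimated 5010000 to 8930000 reads per library in osteoblasts and 24670000 to 28570000 in MC3T3-E1 cells, so low values are more precise in the cell line. Replicates correlated at 0.908 to 0.962 in osteoblasts and 0.983 to 0.991 in MC3T3-E1 cells (Pearson's r across genes, which are not independent). *Slpi* itself averaged 386 ± 9.20 FPKM in mock and 1975 ± 129 in Slpi cells (SD, n = 3), and 2.21 ± 0.513 in vehicle and 28.2 ± 8.88 in PTH osteoblasts.

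Osteoblast markers were uneven between the experiments. All 14 passed the FPKM filter in sorted cells. In MC3T3-E1 cells 13 passed it, of which 10 were called higher in Slpi than in mock cells, against 31.9% of all genes tested. *Bglap*, osteocalcin, ranged from 6963 to 14279.8 FPKM in sorted cells. It was 1.05 to 2.85 FPKM in MC3T3-E1 cells, where *Sp7* (29.3 to 88.3 FPKM) was clearly present. *Col1a1* and *Col1a2* were listed at 0 in vehicle replicate 3 and in all PTH libraries although *Col1a1* was 26216.5 and 24170.4 FPKM in the other vehicle libraries. An exact 0 in these files can thus be a failed estimate. Markers of other cells differed between the sorted libraries, as the plot of marker sums shows. The sum over 12 neutrophil markers was 389 to 485 FPKM with vehicle and 706 to 2375 FPKM with PTH, and the sum over 6 T cell markers was 87.5 to 136 FPKM with vehicle and 0.716 to 17.5 FPKM with PTH. Heart muscle markers summed to 3477 FPKM in PTH replicate 2, against 1.04 to 19.6 FPKM in the other sorted libraries. Endothelial markers summed to 3.20 to 9.10 FPKM in all 6, and *Cdh5*, which defines that cell type, stayed at or below 0.407 FPKM. In bulk RNA of this kind, fewer cells of a type and less RNA per cell cannot be told apart.

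**Figure D1:**
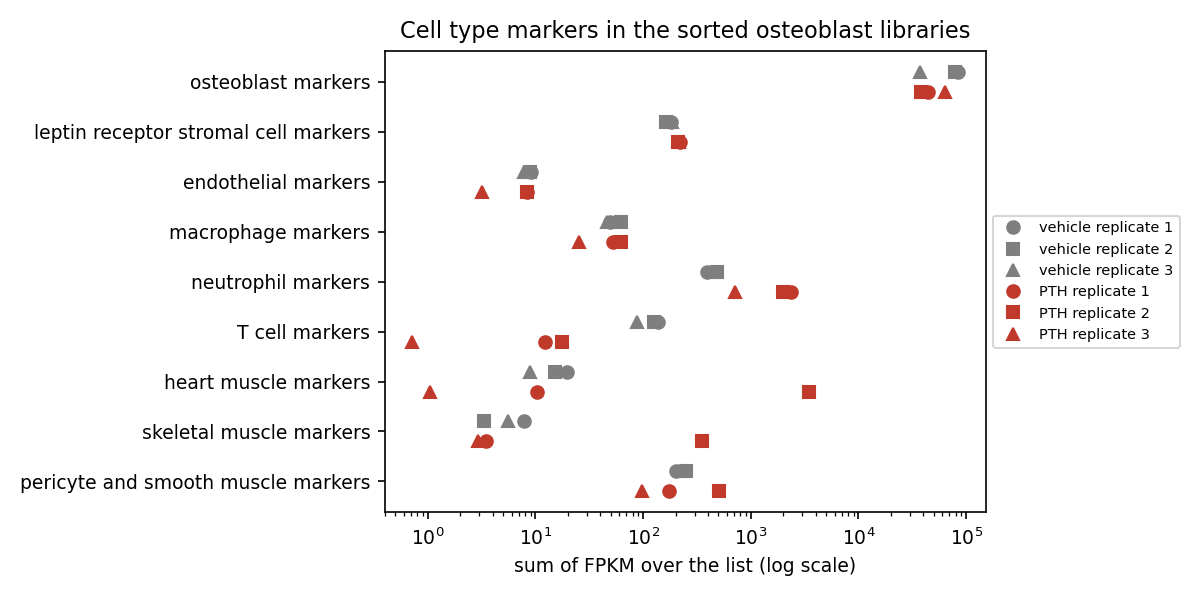
Sum of FPKM (log scale) over each list of cell type markers in the 3 vehicle (grey) and 3 PTH (red) osteoblast libraries, with a symbol shape per replicate. Neutrophil sums were higher and T cell sums lower in all PTH libraries, and PTH replicate 2 stood apart in heart (3477 FPKM) and skeletal muscle markers (349 FPKM). The osteoblast sum includes *Col1a1* and *Col1a2* as listed.

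Among the members, the 3 C/EBP genes were the most abundant in every group. In vehicle osteoblasts the mean FPKM (± SD, n = 3) was 42.6 ± 5.19 for *Cebpb*, 27.2 ± 4.22 for *Cebpd* and 11.0 ± 0.421 for *Cebpa*. *Fabp4*, a fatty acid carrier, followed at 10.6 ± 6.70 and *Lpl*, lipoprotein lipase, at 7.33 ± 0.773. *Lepr* (3.00 ± 0.502), *Adipoq* (2.19 ± 0.772), *Zfp423* (2.09 ± 0.0944) and *Pparg* (1.47 ± 0.413) were lowest. The libraries of neighbours in this order overlapped for *Cebpa* and *Fabp4*, *Fabp4* and *Lpl*, *Lepr* and *Adipoq*, and *Adipoq* and *Zfp423*. In PTH osteoblasts *Adipoq* was the lowest member, at 0.644 ± 0.557 FPKM.

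In mock MC3T3-E1 cells the order by mean FPKM was *Cebpb* (42.3 ± 14.3), *Cebpa* (19.5 ± 2.87), *Cebpd* (18.0 ± 1.49), *Zfp423* (11.4 ± 0.782) and *Lepr* (0.856 ± 0.0529, n = 3 each). *Cebpa* and *Cebpd* overlapped there. The genes of the mature fat cell were near 0 in the line: *Lpl* averaged 0.201, *Fabp4* 0.136, *Pparg* 0.127 and *Adipoq* 0.0240 FPKM. The order of the 5 higher genes was the same in Slpi cells, where *Adipoq* was listed at 0 in all 3 libraries. *Cebpb* made up 50.0% to 57.6% of the summed FPKM of the 3 C/EBP genes in osteoblasts and 48.2% to 58.1% in MC3T3-E1 cells. *Cebpa* made up 12.04% to 14.9% of that sum in osteoblasts and 22.5% to 26.7% in the cell line. *Cebpd* took 28.8% to 37.6% and 19.4% to 25.4%. The experiments were prepared and normalised apart, so these levels were not tested across them.

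**Figure D2:**
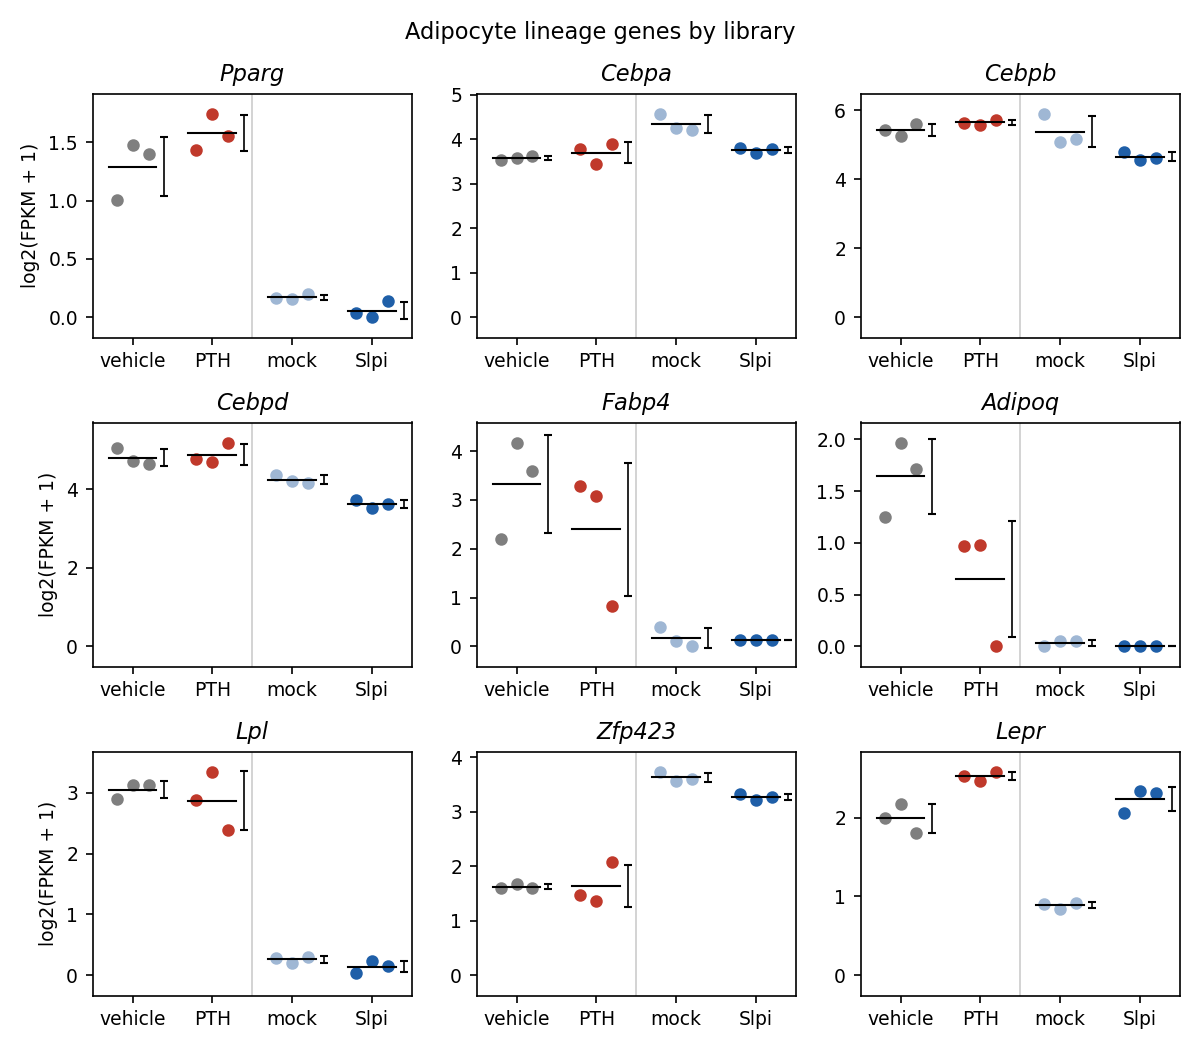
Log2(FPKM + 1) of each adipocyte lineage gene in the vehicle and PTH osteoblast libraries and the mock and Slpi MC3T3-E1 libraries (points, 3 per group), with the mean (line) and SD (bar). *Pparg*, *Fabp4*, *Adipoq* and *Lpl* lay near 0 in MC3T3-E1 cells, and *Lepr* was higher in every Slpi library than in every mock library.

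The first comparison asked how 3 weeks of intermittent PTH changed these genes in osteoblasts. *Lepr* rose with PTH, and none of the other 8 members passed the test. Of all 13004 genes tested, 6.38% were called higher and 8.85% lower at an adjusted p under 0.05, so 1 of 9 members higher and 0 of 9 lower is near the background. At an unadjusted p under 0.05 the counts were 1 member higher and 1 lower, *Adipoq*, while 33.5% of all genes met that level in either direction. The median log2 fold change was 0.08 over the members and 0.01 over all genes tested.

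*Lepr* (chr4:101717404-101815352, plus strand) was 3.00, 3.503 and 2.50 FPKM in vehicle replicates 1, 2 and 3 and 4.77, 4.54 and 4.98 FPKM in PTH replicates 1, 2 and 3. Every PTH library was above every vehicle library, as in 19.5% of all genes tested. The log2 fold change was 0.53 (SE 0.143, 95% confidence interval 0.20 to 0.87), with an adjusted p of 0.0484 by limma with Benjamini-Hochberg adjustment. A two-sided exact permutation test gave p = 0.10, the smallest that 3 against 3 libraries allow. The call was lost in 12 of 15 alternative settings, among them each leave-one-out fit (limma adjusted p 0.0857 to 0.147), while the log2 fold change stayed positive in all 15. Without vehicle replicate 1 or vehicle replicate 2, limma called at most 1 of all genes, so the loss there is not particular to *Lepr*. Relative to the osteoblast markers other than *Col1a1* and *Col1a2*, it was 0.036. That setting, added after the data were seen, moved the median of all genes to -0.49. *Gng11*, a G protein γ subunit, had the pattern most like *Lepr* over the 6 libraries, with a root mean square difference of 0.0349 in centred log2(FPKM + 1). *1110008P14Rik* came next, at 0.0524.

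*Adipoq* (chr16:23146536-23158028) was 1.37, 2.91 and 2.28 FPKM with vehicle and 0.956, 0.975 and 0 FPKM with PTH, replicates 1 to 3. All PTH libraries were below all vehicle libraries, which held for 20.9% of genes tested. The difference did not pass the adjusted threshold, with a log2 fold change of -0.99 (SE 0.330, limma adjusted p = 0.0849). Relative to the osteoblast markers other than *Col1a1* and *Col1a2*, a setting added after the data were seen that lowers the median of all genes by 0.49, it was -1.49 and passed (limma adjusted p = 0.0369). These levels correspond to about 10, 16 and 21 reads with vehicle and about 7, 8 and 0 with PTH, so counting error alone is large. *Fabp4*, another gene of the mature fat cell, was 3.61, 17.0 and 11.1 FPKM with vehicle and 8.72, 7.49 and 0.773 FPKM with PTH. The groups overlapped, and the confidence interval of its log2 fold change ran from -2.67 to 0.82. In PTH replicate 3, where both genes were lowest and whose source name differs in form from those of the other PTH libraries, the sums of macrophage markers (25.6 FPKM) and endothelial markers (3.20 FPKM) were also the lowest of the 6 libraries. Endothelial cells and macrophages can express *Fabp4*, and their part in the result was not tested.

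*Lpl*, which releases fatty acids from circulating lipoproteins, was 6.43, 7.76 and 7.79 FPKM with vehicle and 6.41, 9.16 and 4.21 FPKM with PTH. The PTH libraries lay on both sides of the vehicle libraries, and the log2 fold change was -0.18 with a confidence interval from -0.75 to 0.39. *Pparg*, the nuclear receptor at the centre of adipogenesis, was 1.00, 1.78 and 1.63 FPKM with vehicle and 1.70, 2.35 and 1.93 FPKM with PTH. Its groups overlapped, with a log2 fold change of 0.28 (interval -0.17 to 0.74). The committing factor *Zfp423* was 2.03, 2.198 and 2.04 FPKM with vehicle and 1.79, 1.57 and 3.23 FPKM with PTH. PTH replicate 3 was the highest and the other two PTH libraries the lowest of the 6, so the log2 fold change was 0.01 (interval -0.50 to 0.52).

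Among the C/EBP genes, *Cebpb* was 42.5, 37.4 and 47.8 FPKM with vehicle and 49.2, 47.2 and 52.1 FPKM with PTH. Only PTH replicate 2 fell within the vehicle range, and the log2 fold change of 0.22 (interval -0.05 to 0.49, limma adjusted p = 0.228) did not pass. *Cebpd* was 31.9, 25.6 and 23.97 FPKM against 26.4, 24.8 and 35.3 FPKM. *Cebpa* was 10.6, 11.0 and 11.4 FPKM against 12.7, 9.85 and 13.8 FPKM. Both overlapped between groups, with log2 fold changes of 0.08 (interval -0.32 to 0.48) for *Cebpd* and 0.12 (interval -0.21 to 0.44) for *Cebpa*. Neutrophils also express C/EBP factors, and their summed markers were higher in all PTH libraries. Their part in these values was not tested.

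**Figure D3:**
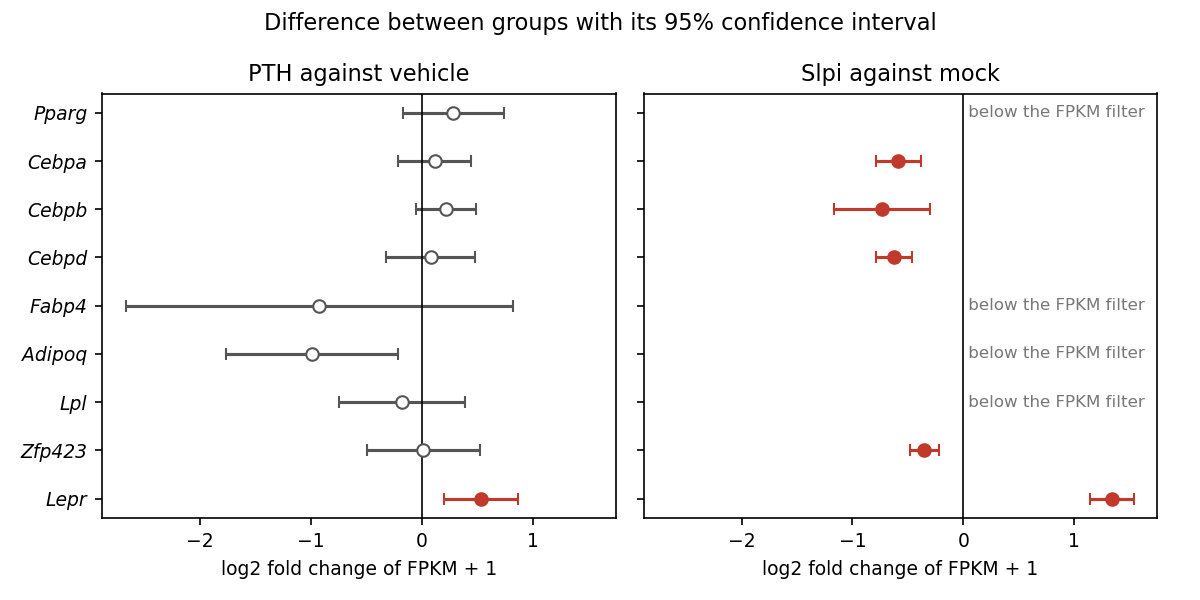
Log2 fold change of FPKM + 1 (points) with its 95% confidence interval for each member, PTH against vehicle (left) and Slpi against mock (right), filled red where the adjusted p was under 0.05. Only *Lepr* was called with PTH (0.53), where 6.38% of all genes tested were called higher and 8.85% lower. All 5 members tested were called with Slpi, where 31.9% of all genes tested were called higher and 28.9% lower.

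Other genes of fat cell biology moved in both directions with PTH. Of all genes tested, 6.38% were called higher and 8.85% lower, and 33.5% had an unadjusted limma p under 0.05 in either direction. The calls with PTH depended on single libraries: each listed gene named below as rising or falling kept its direction in all 6 leave-one-out fits, and was called in at most 4 of them. *Dgat1*, *Creb1* and *Sh2b1* were called in 0 of the 6, *Acsl1*, *Zfp521*, *Dbp* and *Pdgfrb* in 1, *Fabp3* and *Igfbp5* in 2, *Mgll* in 3, and *Gata3* and *Hp* in 4. Without vehicle replicate 1 and without vehicle replicate 2, limma called 0 genes of these lists, while 3187 and 3108 of all genes had an unadjusted p under 0.05. Of all genes tested, those fits called 1 and 0 higher and 0 and 0 lower. A call lost there is therefore not particular to the listed genes. Among the adipocyte lipid store and hormone genes, 17 of 24 were tested, and 3 rose and 0 fell by limma at an adjusted p under 0.05 (4 higher and 2 lower at an unadjusted p under 0.05), with a median log2 fold change of -0.12. *Mgll*, the lipase of monoglycerides, rose from 6.40, 5.27 and 7.35 to 12.2, 11.6 and 11.2 FPKM. *Acsl1*, which activates fatty acids, had a log2 fold change of 0.67 and *Dgat1*, which completes triglyceride synthesis, one of 0.53. The hormone gene *Retn* went from 0.837, 2.13 and 0.938 to 0.372, 0 and 0 FPKM (log2 fold change -1.01, limma adjusted p = 0.0552). *Lipe*, hormone-sensitive lipase, went from 2.98, 3.86 and 1.59 to 1.13, 1.12 and 0.651 FPKM (-0.92, limma adjusted p = 0.0584). As for *Adipoq*, these PTH and vehicle libraries did not overlap and the differences did not pass. *Plin1*, which coats the fat droplet, stayed at or below 0.378 FPKM and *Lep* at or below 0.103 FPKM in all 6 sorted libraries.

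Among 15 adipogenic regulators tested, 0 rose and 1 fell by limma (5 higher and 2 lower at an unadjusted p under 0.05). The shares called over all genes tested were 6.38% higher and 8.85% lower. *Creb1*, the cyclic AMP response factor, fell from 6.47, 6.02 and 5.94 to 4.09, 3.56 and 2.98 FPKM (log2 fold change -0.66). *Ebf1*, *Srebf1* and *Rxra* were each higher in all PTH libraries, by 0.65, 0.45 and 0.46 on the log2 scale, and did not pass (limma adjusted p = 0.0704, 0.0642 and 0.0787). *Stat5b*, also chosen after its values were seen, was lower in all PTH libraries (log2 fold change -0.30, limma adjusted p = 0.143). Groups did not overlap in 19.5% of all genes tested in the higher direction and 20.9% in the lower. Of 17 inhibitors of adipogenesis tested, *Zfp521*, which opposes *Zfp423*, rose by 0.69 and *Gata3* fell by 2.02 on the log2 scale. *Gata3* is also a T cell factor, and 4 of 5 tested T cell markers fell in the same libraries, with a median log2 fold change of -2.78. Its part in the result was not tested.

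*Fabp3*, the heart and muscle counterpart of *Fabp4*, was the 1 gene of 7 tested fatty acid binding genes that rose, from 34.4, 30.8 and 37.9 to 48.9, 69.0 and 70.0 FPKM (log2 fold change 0.83). Heart muscle markers summed to 3477 FPKM in PTH replicate 2 and 1.04 FPKM in PTH replicate 3, and their part in the result was not tested. *Fabp1*, an intestinal and liver gene, was 7.47 FPKM in PTH replicate 3 and listed at 0 in the other 5 libraries. Of the 8 tested partners of lipoprotein lipase, 0 passed by limma, and 2 were higher at an unadjusted p under 0.05. *Lipc*, hepatic lipase, was the most abundant of them, at 79.4 to 115 FPKM in sorted osteoblasts and at most 0.161 FPKM in MC3T3-E1 cells. In leptin and adiponectin signaling, 1 of 14 tested genes rose, *Sh2b1*, an adaptor of JAK2, by 0.44 on the log2 scale. Of 6 tested C/EBP family members and dimer partners, only *Dbp*, a clock output factor, rose, from 0.638, 2.70 and 2.94 to 6.66, 13.6 and 10.8 FPKM. For each of these lists, the share called higher over all genes tested was 6.38%.

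Of 13 tested markers of leptin receptor stromal cells, 3 rose with PTH and 0 fell by limma (4 and 0 at an unadjusted p under 0.05). Of all genes tested, 6.38% were called higher and 8.85% lower, and 33.5% had an unadjusted limma p under 0.05 in either direction. *Hp*, haptoglobin, rose from 4.13, 4.19 and 3.60 to 16.0, 13.6 and 11.6 FPKM (log2 fold change 1.56). Neutrophil precursors also express *Hp*, and the part of the higher neutrophil markers in this result was not tested. *Igfbp5* rose by 0.75 and *Pdgfrb* by 0.60, while *Cxcl12*, the defining chemokine of these cells, was 22.4 to 28.5 FPKM with vehicle and 23.4 to 29.0 FPKM with PTH. The median over the list was 0.11, against 0.33 for the osteoblast markers with *Col1a1* and *Col1a2* as listed. The leave-one-out fits of the lists were added after the marker sums were seen. With libraries scaled to the same FPKM sum, 1 lipid store gene was called, and *Zfp521* and *Sh2b1* were not.

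**Figure D4:**
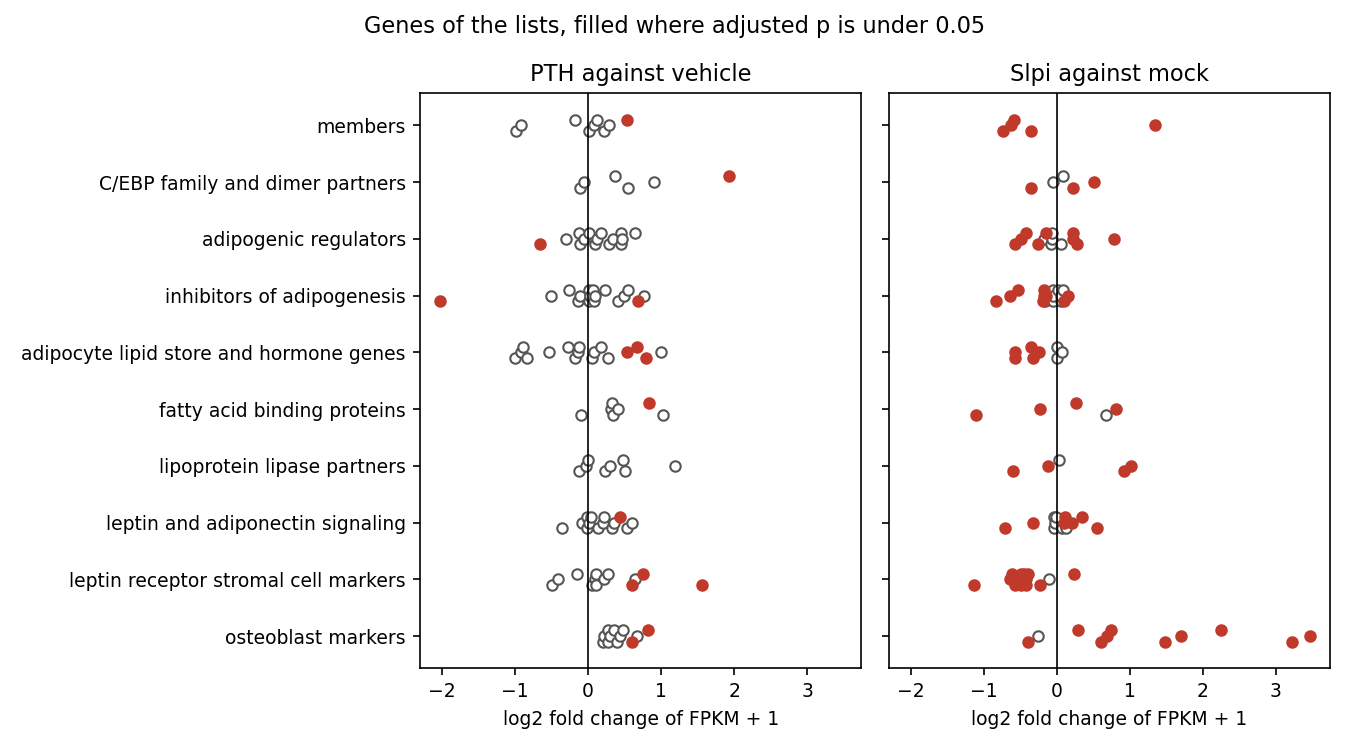
Log2 fold change of FPKM + 1 for each tested gene (points) of the members and the related lists, PTH against vehicle (left) and Slpi against mock (right), filled red where the adjusted p was under 0.05. *Col1a1* and *Col1a2* are left out. In the Slpi panel 13 of 15 leptin receptor stromal markers were called lower, against 28.9% of all genes tested. Of 13 osteoblast markers tested with Slpi, 10 were called higher, against 31.9% of all genes. That count includes *Col1a1*, which is not drawn.

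The second comparison asked how constitutive *Slpi* expression changed the same genes in MC3T3-E1 cells. The C/EBP genes and *Zfp423* fell and *Lepr* rose, while *Pparg*, *Fabp4*, *Adipoq* and *Lpl* were below the filter and were not tested. Of 11466 genes tested, 31.9% were called higher and 28.9% lower, so a call by itself was common in this experiment. Of the 5 members tested, 4 were called lower and 1 higher, and all 5 had groups that did not overlap, as in 34.9% of genes higher and 32.2% lower. Their two-sided exact permutation tests each gave p = 0.10, the smallest possible. A call with a 2-fold change was rarer, at 0.733% of genes higher and 0.384% lower, and *Lepr* was the 1 member that met it.

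*Lepr* was 0.878, 0.796 and 0.895 FPKM in mock replicates 1, 2 and 3 and 3.18, 4.05 and 3.95 FPKM in Slpi replicates 1, 2 and 3. The lowest Slpi library was thus well above the highest mock library. The log2 fold change was 1.34 (SE 0.0862, interval 1.15 to 1.54, limma adjusted p = 8.8e-06). All mock values were below 1 FPKM, so *Lepr* passed the filter only through the Slpi libraries, where it was high. Without the filter it was also called (limma adjusted p = 1.1e-04). Since the level was near the pseudocount of 1, the estimate was 1.99 with a pseudocount of 0.1. Relative to the osteoblast markers other than *Col1a1* and *Col1a2*, a setting that moves the median of all genes to -1.30, *Lepr* was 0.041 and not called. *Slc13a5*, a citrate transporter, and *Ak4*, an adenylate kinase, had the patterns most like it over the 6 libraries (root mean square differences 0.0604 and 0.0738). Their group means went from 0.083 to 1.56 FPKM and from 0.473 to 2.89 FPKM. For *Lepr* the means went from 0.856 to 3.72 FPKM, so the likeness holds on the log2(FPKM + 1) scale and not for the FPKM ratio.

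*Cebpa* (chr7:35119293-35121928) was 22.8, 18.2 and 17.5 FPKM in mock and 12.99, 11.9 and 12.7 FPKM in Slpi cells. It fell by 0.59 on the log2 scale (SE 0.0887, limma adjusted p = 5.9e-04). *Cebpd* was 19.7, 17.5 and 16.8 FPKM against 12.3, 10.4 and 11.3 FPKM. It fell by 0.62 (SE 0.0711, limma adjusted p = 1.4e-04). For both genes mock replicate 1 was the highest library, and no Slpi library reached the lowest mock value.

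*Cebpb* (chr2:167688915-167690418) was 58.8, 33.1 and 35.0 FPKM in mock and 26.8, 22.4 and 23.6 FPKM in Slpi cells. It fell by 0.73 on the log2 scale (SE 0.189, limma adjusted p = 0.00967), the widest error of the 5. Mock replicate 1 stood far above the other mock libraries, and without it the log2 fold change was -0.47 and still passed (limma adjusted p = 0.0017). *Zfp423* was 12.3, 10.8 and 11.1 FPKM against 9.08, 8.35 and 8.71 FPKM, and it fell by 0.35 (SE 0.0563, limma adjusted p = 8.2e-04). As all 3 C/EBP genes fell, the shares of their sum in Slpi cells, 49.6% to 51.5% for *Cebpb*, 24.9% to 26.7% for *Cebpa* and 23.3% to 23.8% for *Cebpd*, overlapped those of the mock libraries.

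The genes with patterns most like each fallen member were *Dact3* and *A330074K22Rik* for *Cebpa* (root mean square differences 0.0234 and 0.0507) and *Atoh8* and *Hic1* for *Cebpd* (0.0321 and 0.0321). For *Zfp423* they were *Abcc10* and *Tead3* (0.0173 and 0.0182). For *Cebpb* no gene came as close, the nearest being *4930413G21Rik* and *Atp6v1c2* (0.156 and 0.158). Annotated exons on the opposite strand overlap those of *Cebpa* (*Gm45091*), *Cebpb* (*Tmem189*) and *Cebpd* (*Spidr*). Whether the authors' counting used strand is not given in the sources used here, so these 3 values may include reads of the partner.

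The 4 untested members stayed close to the limit of detection. *Pparg* was 0.122, 0.112 and 0.147 FPKM in mock and 0.025, 0 and 0.101 FPKM in Slpi cells, about 5, 5 and 6 reads against 1, 0 and 4. Every Slpi value was below every mock value, and without the filter its limma adjusted p was 0.0504. *Lpl* was 0.217, 0.146 and 0.239 FPKM against 0.031, 0.176 and 0.113 FPKM, and these overlapped. *Fabp4* was at most 0.325 FPKM and *Adipoq* at most 0.038 FPKM in any MC3T3-E1 library. Without the filter, no difference in *Lpl*, *Fabp4* or *Adipoq* passed (limma adjusted p = 0.128, 0.750 and 0.211). No count test was run, so a difference in these genes is neither shown nor excluded.

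Of 8 tested lipid store and hormone genes, 5 fell and 0 rose by limma at an adjusted p under 0.05. The counts were the same at an unadjusted p under 0.05. Of all genes tested, 28.9% fell and 31.9% rose at the adjusted threshold. The median log2 fold change was -0.29 over the list and 0.00414 over all genes. *Dgat1* fell from 12.1, 11.3 and 13.4 to 7.43, 8.16 and 8.20 FPKM, and *Lipe* from 2.41, 2.36 and 2.74 to 1.54, 1.08 and 1.47 FPKM. *Scd1*, the stearoyl-CoA desaturase, fell by 0.35 and *Agpat2*, which makes phosphatidic acid, by 0.32 on the log2 scale. *Fasn*, fatty acid synthase, fell by 0.25. Another 5 genes of that list, including the fat cell genes *Plin1*, *Cidec*, *Retn* and *Cfd*, were listed at 0 in all 6 libraries.

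The regulators split. Of 14 adipogenic regulators tested, 4 rose and 5 fell. *Egr2*, an early adipogenic factor, rose from 7.96, 8.86 and 7.14 to 15.0, 16.3 and 12.1 FPKM, and *Klf15*, *Cebpg* and *Stat5b* rose by 0.22 to 0.29 on the log2 scale. *Ebf1* fell by 0.57, *Bmp4* by 0.48, *Lpin1* by 0.42 and *Stat5a* by 0.26. Of 17 inhibitors tested, 7 fell and 2 rose. *Msx2* fell by 0.83, *Id2* by 0.63, *Gata3* by 0.53 and *Klf3* by 0.19, while *Ncor1* rose by 0.16 and *Wwtr1*, which encodes TAZ, by 0.11. Factors that favour and factors that oppose fat cell formation were both among the genes that fell. Of all genes tested 31.9% rose and 28.9% fell, so falls in both lists do not by themselves set them apart. With each library set to the same FPKM sum, the regulators split into 2 higher and 7 lower and the inhibitors into 0 higher and 9 lower.

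Among 5 tested genes of the list of C/EBP family members and dimer partners, *Cebpz*, listed for its symbol, rose by 0.51 on the log2 scale. *Cebpg* rose by 0.23 and *Dbp* fell by 0.35. Over all genes tested, 31.9% rose and 28.9% fell. The fall of *Cebpa*, *Cebpb* and *Cebpd* was therefore not shared by every gene of this list. With each library set to the same FPKM sum, the rise of *Cebpg* was not called. Of 5 tested lipoprotein lipase partners, *Apoe* rose from 0.878, 0.408 and 0.781 to 2.61, 2.09 and 2.55 FPKM and the receptor *Vldlr* rose by 0.92. *Apoe* passed the filter only through its Slpi libraries. *Angptl4*, an inhibitor of the lipase, fell by 0.60 and *Sel1l*, needed for maturation of the lipase, by 0.12. Of 5 tested binding proteins for fatty acids and retinoids, *Fabp3* and *Fabp5* rose by 0.82 and 0.26. *Crabp2*, a retinoic acid carrier, fell from 100.4, 100.7 and 97.8 to 47.0, 45.8 and 44.4 FPKM.

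Genes downstream of the leptin and adiponectin receptors also moved both ways, with 5 of 13 tested rising and 2 falling. At the same FPKM sum 2 rose and 4 fell. Over all genes tested, 31.9% rose and 28.9% fell at the deposited scaling. *Socs3*, which is induced by leptin signaling and restrains it, fell from 67.8, 65.7 and 64.1 to 45.5, 37.3 and 38.1 FPKM (log2 fold change -0.70). *Appl2* fell by 0.32, and *Cdh13*, which binds adiponectin, *Irs1*, *Appl1* and *Ptpn1* rose by 0.56, 0.34, 0.21 and 0.12. The leptin gene itself was at most 0.013 FPKM in MC3T3-E1 cells. Small rises depended on scaling: with each library set to the same FPKM sum, *Klf15*, *Cebpg*, *Ncor1*, *Wwtr1*, *Ptpn1*, *Appl1* and *Ebf3* kept their direction and were no longer called.

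*Lepr* moved against the genes that accompany it in marrow stromal cells. Of 15 tested markers of those cells, 13 fell and 1 rose, with a median log2 fold change of -0.48. Over all genes tested, 28.9% fell and 31.9% rose. *Igfbp5* fell from 103, 102 and 104 to 48.0, 45.4 and 46.8 FPKM, *Gas6* by 0.63, *Ly6a* by 0.62 and *Ebf1* by 0.57 on the log2 scale. *Cxcl12* fell by 0.49 and *Pdgfra* by 0.48. *Ebf3*, called at the deposited scaling, rose by 0.23. In the same libraries 10 of 13 tested osteoblast markers rose, led by *Ifitm5* (3.47), *Ibsp* (3.22) and *Pth1r* (2.25 on the log2 scale), and *Spp1* fell by 0.39. Of 4 tested pericyte and smooth muscle markers 3 fell, *Cnn1* by 1.06, *Acta2* by 0.77 and *Tagln* by 0.62, and *Cspg4* rose by 0.82. T cell markers summed to at most 0.15 FPKM and heart muscle markers to at most 1.22 FPKM. The 13 macrophage markers summed to 108 to 114 FPKM in mock and 73.4 to 76.1 FPKM in Slpi cells, of which *Vcam1*, also a stromal marker, made 103 to 109 and 69.9 to 72.4 FPKM. Of its 3 tested genes, *Vcam1* and *Cd14* fell, 6 genes of the list were listed at 0 in all libraries, and *Csf1r* was at most 0.246 FPKM.

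Side by side, *Lepr* was called higher in both experiments, by 0.53 with PTH and by 1.34 with Slpi. The PTH call was lost in 12 of 15 alternative settings. Relative to the osteoblast markers other than *Col1a1* and *Col1a2*, *Lepr* was 0.036 with PTH and 0.041 with Slpi, and was called in neither. That centring moved the median of all genes to -0.49 with PTH and to -1.30 with Slpi, so *Lepr* lay above the median in both. With Slpi it called 11366 genes lower and 30 higher. *Cebpa*, *Cebpb*, *Cebpd* and *Zfp423* had log2 fold changes of 0.12, 0.22, 0.08 and 0.01 with PTH, none of which passed, and of -0.59, -0.73, -0.62 and -0.35 with Slpi. The experiments differ in cells, library preparation and normalisation, and the difference between their effects was not tested.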

How the data were processed

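RNA of sorted Col2.3-ECFP osteoblasts (vehicle, PTH) and of MC3T3-E1 cells (mock, Slpi) was sequenced, 3 libraries per group. FPKM values were deposited by the authors, 1 file per library. Per the labels, reads were aligned to mm10 with TopHat2 2.0.13, Bowtie2 2.2.3 and SAMtools 0.1.19, and FPKM came from Cufflinks 2.2.1; the annotation is not given in the sources used here. The labels name different library kits for both experiments.

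From the FPKM values, limma 3.58.1 (R 4.3.3) was run on log2(FPKM + 1) with trended eBayes, per experiment, on genes that reached an FPKM of 1 in any of the 6 libraries, with Benjamini-Hochberg adjustment over all of them. Calls are at an adjusted p under 0.05. Single genes also had an exact permutation test (SciPy 1.17.1). Read depth is estimated from the spacing of low FPKM values (80.8% to 86.8% lay within 0.15 of a whole read, against 30% by chance), so read numbers are approximate, and no count test was run. The code was tested on simulated data. Samples were grouped by title; PTH replicate 3 is titled as PTH but has a source name (CFP_PTH) in another form than the numbered names of the other PTH libraries. The members and gene lists were chosen with earlier results of these data known. Named are all members, up to 4 called genes per direction of each list, up to 3 abundant or called markers per cell type, and the 2 genes most like each called member; *Retn*, *Lipe*, *Plin1*, *Lep*, *Cfd*, *Cidec*, *Ebf1*, *Srebf1*, *Rxra*, *Fabp1*, *Lipc*, *Csf1r*, *Vcam1*, *Cdh5*, *Cxcl12* and *Pdgfra*, where not called or outside that rule, were chosen after their values were seen. Alternatives were the replicate block, filter, pseudocount, trend, scaling and leaving out each library. Promoter windows were the 250 bases before each start, cut at annotated exons.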

Additional observations from a re-analysis of the deposited data

How the results depend on the processing

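With PTH, 830 genes were called higher and 1151 lower. Without a filter 517 were called higher, with each library scaled to the same FPKM sum 546 (and 1201 lower), and with libraries centred on osteoblast markers 15 higher and 3 lower. That centring uses *Col1a1* and *Col1a2*, listed at 0 in 4 of the 6 libraries; centred on the other osteoblast markers, which was added after the data were seen, 111 were higher and 4407 lower, and 0 members were called higher and 1, *Adipoq*, lower. Leaving out 1 library gave 0 to 511 higher and 0 to 828 lower. Without vehicle replicate 2, limma called 0 in both directions while 3108 genes had an unadjusted p under 0.05, and without vehicle replicate 1 it called 1 and 0 (3187). The 1 member called higher, *Lepr*, became 0 without a filter, with a pseudocount of 0.1, at the same FPKM sum, under both centrings, under the replicate block and in every leave-one-out fit (0 to 0); its unadjusted p was under 0.05 in each of these except the centrings. With Slpi, 3658 genes were called higher and 3315 lower; at the same FPKM sum these were 2430 and 4438, centred 32 and 11361, and centred without the collagens 30 and 11366, with 0 members called higher in both centrings. Centring moved the median of all genes by 1.18 with PTH and by -1.29 with Slpi, and without the collagens by -0.49 and -1.30. *Lepr* with Slpi was 0.046 under the centring and not called. The 4 members called lower with Slpi were 4 under all 15 alternatives.

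With PTH, centring gave log2 fold changes of 0.25 for *Fabp4*, 0.18 for *Adipoq* and 1.00 for *Lpl*. Centring without the collagens gave -0.21 for *Pparg*, -0.38 for *Cebpa*, -0.28 for *Cebpb*, -0.42 for *Cebpd* and -0.49 for *Zfp423*, none of them called. Without PTH replicate 3, *Lpl* was 0.063, *Cebpd* -0.071 and *Zfp423* -0.21, and over all leave-one-out fits they ranged from -0.42 to 0.063, from -0.071 to 0.20 and from -0.21 to 0.15. *Cebpd* was -0.0027 without vehicle replicate 3. *Zfp423* was -0.00076 with a pseudocount of 0.1, -0.029 at the same FPKM sum and -0.0012 without vehicle replicate 1. The shift of the median accompanies the sign changes under centring; the cause of the others was not tested.

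Same-numbered libraries deviated together with correlations of 0.0294, 0.0735 and 0.102 in osteoblasts and 0.0385, -0.0523 and -0.000264 in MC3T3-E1 cells. Between differently numbered libraries they ranged from -0.116 to 0.0688 in osteoblasts and from -0.0988 to 0.105 in MC3T3-E1 cells. With 3 libraries per group these values cannot decide whether the numbers pair the samples. The replicate block gave 1028 genes higher and 1234 lower with PTH and 3752 and 3420 with Slpi; with it the adjusted p of *Lepr* with PTH was 0.0711.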
